A study of Arabidopsis thaliana with 10 samples.

Results

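The genes described here are 38 Arabidopsis loci known for rapid responses to wounding, touch and jasmonate, followed in dark-grown seedlings of 10 genotypes that differ in their PHYTOCHROME INTERACTING FACTORS (PIFs). They were taken by locus identifier from the 33322 loci in the count files. The list holds 8 ethylene response factors (ERFs), 6 WRKY factors, 5 JAZ repressors, 4 calmodulin-like calcium sensors, 3 CBF factors, 3 C2H2 zinc-finger repressors, 2 CCCH zinc-finger proteins, 2 lipoxygenases, 2 deadenylases, 1 MYB factor, the carrier DIC2 and the locus AT4G29780, which carries no symbol in the reference. The genes were chosen by what is known of their families and by levels measured in these same libraries, among them the low levels of several in single mutants, with no stated threshold. Differences between mutants and wild type (WT), and between pif5 and the other single mutants, are therefore given as a description and carry no test. Of the 38 genes, 36 had enough reads to enter the fit of 18680 loci. The other 2, CBF1 and CBF3, gave 31 and 15 reads over all 30 libraries.

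Wounding, bending and cooling of plant tissue raise calcium in the cytosol, and calcium sensors, mitogen-activated protein kinases and CAMTA transcription factors then switch on an early wave of genes that needs no new protein. Many of its products are transcription factors whose messages are short-lived, so that their levels rise and decay quickly after a stimulus. Jasmonate signalling is part of this wave: lipoxygenases begin its synthesis, the active conjugate brings JAZ repressors to the COI1 receptor for breakdown, and the MYC factors set free then transcribe JAZ genes again. PIFs are basic helix-loop-helix factors that maintain growth in darkness and are removed when phytochrome is activated by light.

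All seedlings, WT included, were of the Columbia background and 2 days old. Their seeds had 3 h of white light and a far-red pulse of 15 min, and then stayed 48 h in darkness at 21 °C before whole seedlings were harvested. The groups were WT, the single mutants pif1, pif3, pif4 and pif5, the triple mutants pif345, pif145, pif135 and pif134, which by their names keep PIF1, PIF3, PIF4 and PIF5 in this order, and the quadruple mutant pifq, each with 3 biological replicates called A, B and C. The alleles are not given in the sources used here. The labels give neither the order nor the time of harvest, so the time between handling and freezing cannot be told apart from genotype or library.

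The libraries held 18.97 to 70.81 M counted reads (M for mega), with a median of 25.16 M, and levels are given as CPM, the count over the library's size in M after TMM scaling. Replicates of a genotype differed by more than counting error, with a chi-square per degree of freedom of 27.1 to 207. PIF3 lay at 68.5 to 130.0 CPM in the libraries labelled as keeping it and at 1.35 to 6.91 in those labelled as lacking it, pif134 aside. PIF5 lay at 4.17 to 24.9 and at 0 to 0.592 CPM in the same way. PIF1 lay at 16.4 to 72.2 CPM where kept and at 1.05 to 14.9 where lost, but at 56.7 to 74.5 CPM in the 3 libraries labelled pif134, which goes against their label. PIF4 reads were not lower in the mutants of that gene, so they check nothing. Replicate letters deviated together within WT and the single mutants and within the triple mutants and pifq, and the labels name no batch. They also did so between WT and the libraries labelled pif134 (r of 0.584, 0.122 and 0.223 for A, B and C). Between WT and pif345, pif145, pif135 or pifq they did not. Where WT is set against pifq or a triple mutant, the set of libraries and the genotype cannot be told apart.

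Promoter sequences of 6 of the genes are shown because these genes stand for the patterns described below. Each is the stretch of 250 bases before the gene start in RefSeq's TAIR10.1 annotation, written 5′ to 3′ on the gene's strand. Capitals mark 6 short words, searched on both strands: CGCGT, the core bound by CAMTA factors, CACGTG, the G-box bound by PIF and MYC factors, TTGACC and TTGACT, forms of the W-box bound by WRKY factors, GCCGCC, the GCC-box bound by ERFs, and CCGAC, the core bound by CBFs. No stretch of capitals joins different words, and the ACGCGT of DIC2 is 1 place that reads CGCGT on both strands.
STZ, chr1:9649324-9649573, minus strand: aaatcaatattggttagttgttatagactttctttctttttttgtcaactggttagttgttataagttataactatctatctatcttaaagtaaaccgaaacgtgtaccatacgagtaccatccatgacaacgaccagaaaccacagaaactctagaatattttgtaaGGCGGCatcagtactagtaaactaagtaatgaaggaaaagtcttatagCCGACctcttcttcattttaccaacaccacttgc
ZAT12, chr5:24102564-24102813, plus strand: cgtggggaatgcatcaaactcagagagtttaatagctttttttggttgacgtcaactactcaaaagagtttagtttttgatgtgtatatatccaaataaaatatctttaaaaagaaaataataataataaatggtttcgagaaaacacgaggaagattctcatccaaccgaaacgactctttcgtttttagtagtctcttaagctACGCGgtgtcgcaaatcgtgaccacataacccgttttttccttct
ERF109, chr4:16451626-16451875, plus strand: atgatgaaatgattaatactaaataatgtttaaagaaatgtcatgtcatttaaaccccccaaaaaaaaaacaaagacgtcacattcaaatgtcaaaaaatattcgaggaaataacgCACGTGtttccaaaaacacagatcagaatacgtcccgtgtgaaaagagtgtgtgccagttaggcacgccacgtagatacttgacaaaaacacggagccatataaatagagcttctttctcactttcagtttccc
ORA47, chr1:28143601-28143850, plus strand: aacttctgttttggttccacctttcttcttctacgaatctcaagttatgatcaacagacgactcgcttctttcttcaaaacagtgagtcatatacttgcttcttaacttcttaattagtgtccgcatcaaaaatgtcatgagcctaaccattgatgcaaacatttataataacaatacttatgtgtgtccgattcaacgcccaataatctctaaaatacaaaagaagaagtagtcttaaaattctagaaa
DIC2, chr4:12686209-12686458, plus strand: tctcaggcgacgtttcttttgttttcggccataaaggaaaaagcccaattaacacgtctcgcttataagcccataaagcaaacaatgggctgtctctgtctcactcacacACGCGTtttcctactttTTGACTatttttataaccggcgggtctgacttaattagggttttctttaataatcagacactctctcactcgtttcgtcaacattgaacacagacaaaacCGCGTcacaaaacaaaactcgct
AT4G29780, chr4:14579313-14579562, plus strand: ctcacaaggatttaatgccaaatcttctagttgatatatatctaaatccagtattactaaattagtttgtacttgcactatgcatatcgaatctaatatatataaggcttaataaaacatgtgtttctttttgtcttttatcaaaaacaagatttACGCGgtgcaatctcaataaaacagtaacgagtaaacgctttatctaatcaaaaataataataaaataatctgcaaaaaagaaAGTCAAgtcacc

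CGCGT stands in the windows of 8 of the 38 genes (21.1%, against 7.44% of 18325 tested genes with a window), namely ZAT12, CML24, CBF2, JAZ1, JAZ5, LOX4, DIC2 and AT4G29780. GCCGCC stands in 4 (10.5% against 1.9%), namely STZ, ZAT6, WRKY33 and ERF11. CACGTG stands in 6 (15.8% against 7.66%), among them ERF109, JAZ7 and JAZ8. TTGACC is found in 8 (21.1% against 12.4%), TTGACT in 9 (23.7% against 18.8%) and CCGAC in 4 (10.5% against 13%). The windows of ORA47, CML12, ERF6 and 11 further genes hold none of the 6 words. These are matches of letters in a window and say nothing of whether a factor bound there.

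The 38 genes did not move as a block. ORA47, DIC2, AT4G29780 and ERF109 were highest in WT, in pif5 or in both, and low in pif3, pif4, the triple mutants and pifq. STZ, WRKY40, SZF1 and the deadenylase gene CAF1B were low in pif3 and pif4, while their triple-mutant libraries ranged up to or near WT levels. JAZ1 was low in pif3 and pif4 too, but of the triple mutants only pif345 had libraries within the WT range. ZAT12, CML12, MYB15, ERF5, ERF6 and others were highest in the libraries labelled pif134. These groupings were made after the values were seen. In whole seedlings a lower level can come from fewer cells that express a gene or from less RNA in each, and these cannot be told apart.

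**Figure D1:**
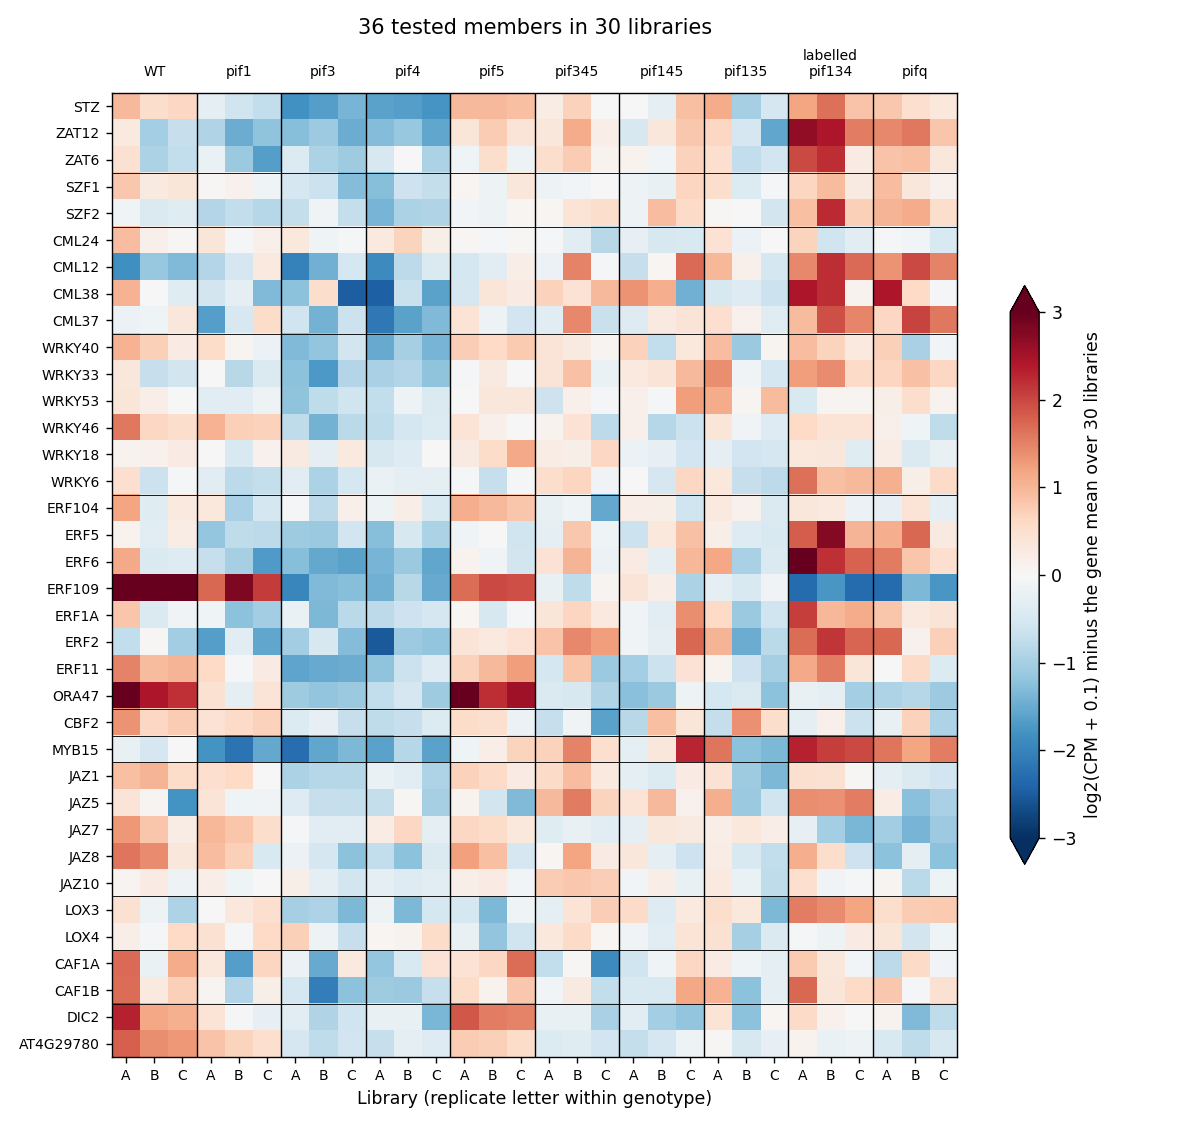
Levels of the 36 tested genes (rows, ordered by role) in the 30 libraries (columns, 3 per genotype), as log2(CPM + 0.1) minus the gene's mean over all libraries, with the colour scale ending at -3 and 3. ORA47 and DIC2 are red in WT and pif5, STZ, WRKY40 and ERF11 are blue in all libraries of pif3 and pif4, and ERF6, ZAT12 and MYB15 are deep red in the libraries labelled pif134.

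A gene was counted as called when its adjusted p in edgeR's quasi-likelihood test (Benjamini-Hochberg over all 18680 loci) lay under 0.05. Against WT, 4 of the 36 genes were called lower in pif1, where 1.99% of all loci were called lower, 8 in pif3 (0.0964% of all loci) and 5 in pif4 (0.0535%), and none was called higher. The median log2 fold change of the 36 genes was -0.60 in pif1, -1.15 in pif3 and -1.12 in pif4, beside 0.04, 0.02 and -0.01 for all loci. ORA47, DIC2, STZ and AT4G29780 were called in all 3 of these mutants, ERF109 in pif3 and pif4, and ERF11, WRKY46 and JAZ1 in pif3. These contrasts were known when the list was drawn up, so nothing is read from the counts. Without WT A, 1 gene was called in pif1, 5 in pif3 and 4 in pif4. Of all loci 307, 10 and 7 were called then, beside 703, 21 and 11 in the main fit. Without pif1 B or C 1 gene was called in pif1, and without pif3 B 5 in pif3. Of all loci 314, 301 and 8 were called in these fits, in the same order. DESeq2 called 7 in pif1 and 10 in pif4, and a fit of WT and the single mutants alone called 9 in pif4. Of all loci DESeq2 called 1277 in pif1 and 23 in pif4, beside 703 and 11 in the main fit. The fit of WT and the single mutants alone called 18 of all loci in pif4.

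In pif5, 0 of the 36 genes were called against WT by edgeR, where 0.128% of all loci were called. At an unadjusted p under 0.05 there were 7 (19.4% of the genes, beside 12.8% of all loci), DESeq2 called 2, and the fit with the replicate letter as a block called 2. Of all loci, DESeq2 called 199 and the block 379, beside 24 in the main fit. The median was -0.22 (all loci -0.01). When pif5 was set against the other single mutants, 5 genes were called higher in pif5 than in pif1 (2.75% of all loci were), 9 higher than in pif3 (0.364%) and 7 higher than in pif4 (0.348%). With the replicate letter as a block within this set of libraries the counts were 9, 14 and 14. That fit called more of all loci too, in either direction: 3033, 879 and 970, beside 1027, 119 and 103 in the main fit. Without pif1 B or C 1 gene was called against pif1 and without pif5 B 3, without pif3 B 5 were called against pif3, and without any 1 of the pif4 libraries 4 against pif4. Of all loci these fits called 613, 571 and 518 against pif1 and 55 against pif3. Against pif4 they called 29, 24 and 39 of all loci without pif4 A, B and C. The 3 comparisons share the pif5 libraries.

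Against WT, 5 genes were called lower and 1 higher in pif345, beside 1.48% and 2.42% of all loci. In pif145 and in pif135 there were 7 lower and 1 higher, beside 5.52% and 6.53% of all loci in pif145 and 5.77% and 6.79% in pif135. The libraries labelled pif134 had 5 lower and 13 higher (7.79% and 9.12% of all loci), and pifq had 8 lower and 4 higher (7.17% and 8.01%). Without WT B the libraries labelled pif134 had 8 genes called higher, and without WT C 9. In either direction 2748 and 2242 of all loci were called in these fits, beside 3159 in the main fit. In pifq DESeq2 called 7 higher and the block by letter 8, each with 8 lower. Of all loci DESeq2 called 3392 there and the block 4597, beside 2835 in the main fit. The medians were -0.08, -0.31, -0.41, 0.04 and -0.30, beside 0.00, 0.02, 0.03, -0.02 and -0.01 for all loci. DIC2, AT4G29780, ORA47 and ERF109 were called lower in each of these 5 genotypes, and CML12 was called higher in each, although its calls in pif345, pif145 and pif135 were lost without single libraries. With the replicate letter as a block within each set of libraries 13 genes were called in pif345. The same fit called 2892 of all loci there, beside 729 in the main fit. Markers of seed stores, root hairs and plastids moved in the same comparison of pifq with WT. There, 5 of 8 seed storage genes were called lower (median -2.31), 4 of 4 root hair genes were called lower (-2.59) and 4 of 4 antenna and Rubisco genes were called higher (3.72), and their part in the levels of the 38 genes was not tested. The seed storage genes summed to 2190 to 4200 CPM in WT, 139 to 715 in pifq and 12.7 to 287 in the libraries labelled pif134. The root hair genes summed to 20.3 to 40.2, 1.46 to 8.4 and 0.475 to 1.89 CPM in the same order, and the antenna and Rubisco genes to 1250 to 1960, 12500 to 20100 and 5630 to 11400 CPM. Without WT A, 3 genes were called in pif345, 4 in pif145 and 4 in pif135, and without pif145 C, pif135 B or pif135 C the counts of those mutants were 5. Of all loci 307, 1369 and 1392 were called without WT A, beside 729, 2251 and 2346 in the main fit. Without pif145 C, pif135 B or pif135 C 877, 1593 and 1291 of all loci were called.

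**Figure D2:**
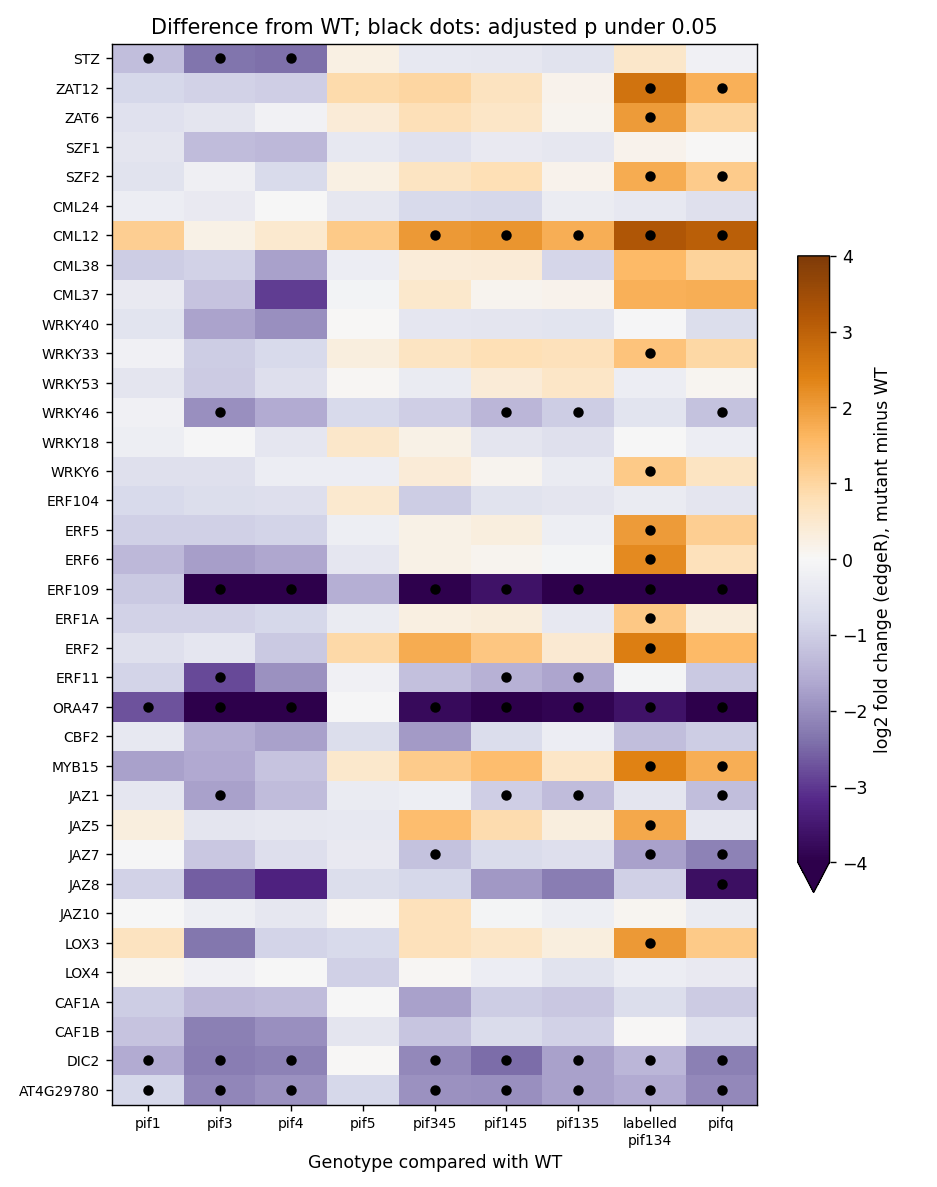
Log2 fold change of each mutant (columns) against WT for the 36 tested genes (rows) from the edgeR fit, with the colour scale ending at -4 and 4 and black dots where the adjusted p lay under 0.05. ORA47, DIC2 and AT4G29780 carry a dot in 8 of the 9 columns and none in pif5, and CML12 carries dots only from pif345 to pifq. AT4G29780 averaged 25.7 CPM in pif1 and in pif5, beside 45.8 in WT, so its missing dot in pif5 does not mark a WT level.

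ORA47 stands at the head of the jasmonate branch. It encodes an AP2/ERF factor that activates genes of jasmonate synthesis (AT1G74930, chromosome 1, 28143851 to 28145058). Its level was 5.38, 2.7 and 2.3 CPM in WT A, B and C, 0.621, 0.323 and 0.584 in pif1, 0.151, 0.131 and 0.143 in pif3, 0.212, 0.27 and 0.151 in pif4, and 4.76, 2.33 and 2.94 in pif5. It was 0.288, 0.275 and 0.178 in pif345, 0.118, 0.142 and 0.371 in pif145, 0.262, 0.285 and 0.121 in pif135, 0.344, 0.336 and 0.158 in the libraries labelled pif134, and 0.177, 0.189 and 0.145 in pifq. The 3 WT and 3 pif5 libraries lay between 2.30 and 5.38 CPM and the other 24 between 0.118 and 0.621, without overlap. WT averaged 3.46 ± 1.68 CPM (SD, n = 3) and pif5 3.34 ± 1.27, while the means of the 8 other mutants ran from 0.142 in pif3 to 0.509 in pif1. The log2 fold change against WT was -4.54 ± 0.46 in pif3, -2.75 ± 0.41 in pif1, -4.30 ± 0.48 in pifq and -0.04 ± 0.36 in pif5, where ± is the standard error of the fit.

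LOX3 and LOX4 encode lipoxygenases that start jasmonate synthesis. LOX3 gave 142 reads in all and reached 0.631, 0.576 and 0.475 CPM in the libraries labelled pif134, above the highest WT library at 0.246. The pifq libraries, at 0.266, 0.33 and 0.338, lay above it too, as did single libraries of pif1, pif345, pif145 and pif135. The call under the label pif134 was kept in 4 of 12 settings. LOX4 had genotype means between 0.804 CPM in pif5 and 1.67 in pif1. Its WT libraries held 1.48, 1.26 and 2.0 CPM, and they overlapped with those of every mutant except pif5, which held 1.09, 0.507 and 0.816.

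The JAZ proteins repress MYC factors until jasmonate is sensed, and their genes are themselves jasmonate-induced. JAZ1 (AT1G19180) held 76.3, 83.6 and 60.4 CPM in WT, 21.2, 22.7 and 22.6 in pif3, 35.6, 32.1 and 21.5 in pif4 and 33.2, 30.5 and 27.3 in pifq. These 9 mutant libraries lay below the 3 of WT, at log2 fold changes of -1.73 ± 0.32, -1.31 ± 0.32 and -1.28 ± 0.32. In pif135 library A held 54.9 CPM and B and C 19.6 and 15.9. JAZ1 was at 61.4, 77.2 and 50.5 CPM in pif345, 33.4, 30.6 and 48.7 in pif145, and 57.3, 56.6 and 41.6 in the libraries labelled pif134. It was called lower than in WT in pif3, pif145 (-0.97), pif135 (-1.29) and pifq, but not in pif4. The call in pif145 was lost without any 1 of the WT or pif145 libraries, and that in pif135 without pif135 B or C. In pif3 the call held in 9 of 14 settings. Leaving out any single library of pif3, or either A or B of WT, removed it. JAZ7 (AT2G34600) was at 4.23, 3.02 and 1.94 CPM in WT, 1.38, 0.768 and 0.581 in the libraries labelled pif134 and 0.753, 0.566 and 0.724 in pifq, so that the latter 6 lay below WT. The libraries of pif3, at 1.58, 1.31 and 1.29, and of pif345, at 1.26, 1.41 and 1.28, lay below WT too. JAZ7 was called lower in pif345 (-1.21), in the libraries labelled pif134 (-1.75) and in pifq (-2.16). The call in pif345 was lost without WT A or any 1 of the pif345 libraries, and with total counts alone.

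JAZ8, a JAZ that lacks the usual degron and resists breakdown, was rare, with 46 reads in WT and 2 in pifq. That is a ratio of 14.6 in CPM with a 95% exact interval of 3.82 to 124, which covers counting error only. JAZ10 (AT5G13220) lay between 4.63 and 4.90 CPM in pif345 and between 1.51 and 3.90 in the other 27 libraries. JAZ5 (AT1G17380) averaged 1.47 ± 0.101 CPM in the libraries labelled pif134, 1.16 ± 0.407 in pif345 and 0.412 ± 0.308 in WT (SD, n = 3 each), and WT C held 0.0657.

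STZ, also called ZAT10, is a C2H2 zinc-finger repressor of the responses to cold, salt and drought (AT1G27730, chromosome 1, 9648021 to 9649323). It stood at 45.6, 33.6 and 35.8 CPM in WT A, B and C, 18.8, 15.4 and 13.8 in pif1, 6.5, 7.35 and 8.76 in pif3, 7.58, 7.33 and 6.75 in pif4, and 45.6, 45.6 and 43.6 in pif5. In the remaining genotypes it stood at 27, 37.6 and 23.5 in pif345, 23.1, 19.1 and 43.5 in pif145, 50.5, 11.6 and 16.3 in pif135, 53.1, 73.3 and 42.2 in the libraries labelled pif134, and 40.4, 32.8 and 29 in pifq. The 6 libraries of pif3 and pif4 lay between 6.50 and 8.76 CPM, and the lowest of the other 24 was pif135 B at 11.6. The pif5 libraries lay at the upper end of those of WT, and in pif135 the replicates spread from 11.6 to 50.5. The log2 fold change against WT was -2.35 ± 0.37 in pif3, -2.41 ± 0.38 in pif4 and -1.26 ± 0.36 in pif1, but -0.39 ± 0.36 in pif345, which lacks both PIF3 and PIF4 by its label, and -0.17 ± 0.36 in pifq. In pif1 the call was lost with scaling by total counts alone and without any 1 of WT A, WT C and the pif1 libraries.

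ZAT12, a zinc-finger regulator of responses to reactive oxygen and cold (AT5G59820), took another course. It held 17, 6.81 and 8.48 CPM in WT A, B and C, 7.42, 4.88 and 5.99 in pif1, 5.64, 6.5 and 4.9 in pif3, 5.54, 6.21 and 4.64 in pif4, and 17.9, 23.6 and 18.2 in pif5. It held 17.7, 30.2 and 15.8 in pif345, 9.83, 17.5 and 24.2 in pif145, 21.2, 9.81 and 4.61 in pif135, 88.2, 75.2 and 40.4 in the libraries labelled pif134, and 37.6, 41.5 and 24.6 in pifq. The libraries labelled pif134 and those of pifq and pif5 lay above all 3 of WT, the first 2 of these at log2 fold changes of 2.66 ± 0.43 and 1.69 ± 0.42. The libraries of pif3 and pif4 lay below WT, at -0.92 and -0.98, and were not called. The related repressor ZAT6 (AT5G04340) was less separated. Its level was 11.7, 4.37 and 5.06 CPM in WT A, B and C, 7.42, 3.88 and 2.67 in pif1, 6.42, 4.37 and 4.01 in pif3, 6.05, 8.41 and 4.41 in pif4, and 7.76, 12.3 and 7.64 in pif5. It was 12.4, 14.6 and 9.14 in pif345, 9.2, 8.1 and 13.8 in pif145, 12.1, 5.09 and 5.71 in pif135, 34.1, 40.3 and 10.2 in the libraries labelled pif134, and 15.5, 16.1 and 10.8 in pifq. The libraries A and B labelled pif134 were the highest, while C, at 10.2 CPM, lay below WT A at 11.7.

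SZF1 and SZF2 are tandem CCCH zinc-finger proteins that answer to salt and to microbial elicitors. SZF2 (AT2G40140) was at 15.9, 12.6 and 13.1 CPM in WT A, B and C, 9.13, 10.2 and 9.31 in pif1, 10.4, 15.8 and 10.3 in pif3, 6.43, 8.77 and 9.01 in pif4, and 16.1, 15.2 and 17.8 in pif5. It was at 17.8, 22.7 and 24.5 in pif345, 15.2, 32.3 and 25.2 in pif145, 17.5, 17.1 and 11.5 in pif135, 32, 80.1 and 27.9 in the libraries labelled pif134, and 34.7, 36.6 and 24.6 in pifq. The libraries labelled pif134 and those of pifq and pif345 lay above WT, the first 2 of these at log2 fold changes of 1.75 ± 0.32 and 1.21 ± 0.31, and library B labelled pif134 was the highest of the 30. SZF1 (AT3G55980) lay between 35.3 and 51.3 CPM in WT, between 11.8 and 20.4 in pif3 and between 11.9 and 18.8 in pif4, without overlap with WT. Its difference from WT was -1.29 ± 0.29 and -1.36 ± 0.29 and was not called by edgeR. DESeq2 called it in both, the replicate block within the set in pif3, and the fit of that set alone in pif4.

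CML12 and CML24, also called TCH3 and TCH2, are touch-induced calmodulin-like proteins. CML12 (AT2G41100) had 5.87, 9.55 and 8.44 CPM in WT A, B and C, 11.5, 14.8 and 25.9 in pif1, 5.13, 7.77 and 14.7 in pif3, 5.59, 12.3 and 15.6 in pif4, and 14.6, 16.8 and 24.3 in pif5. It had 18.7, 59.9 and 20.2 in pif345, 13, 22.1 and 69 in pif145, 42.2, 23.3 and 14.6 in pif135, 57.8, 98.1 and 68.7 in the libraries labelled pif134, and 53.5, 83.9 and 59.1 in pifq. All 15 libraries of the triple mutants and pifq, those labelled pif134 included, lay above the highest WT library at 9.55 CPM, as did the 6 of pif1 and pif5. Against WT the difference on the log2 scale ran from 1.74 ± 0.53 in pif135 to 3.23 ± 0.56 in the libraries labelled pif134. In pif345 and pif145 a single library, B at 59.9 CPM and C at 69.0, was about as high as those of pifq. Without that library the log2 difference was 1.29 in pif345, from 2.04, and 1.14 in pif145, from 2.12, and without pif135 A it was 1.24 in pif135, from 1.74. Each of these calls was lost then, and also without WT A. CML24 (AT5G37770) had genotype means between 36 CPM in pif145 and 63.4 in WT, and its libraries overlapped with those of WT in the 4 single mutants, in pif135 and under the label pif134.

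**Figure D3:**
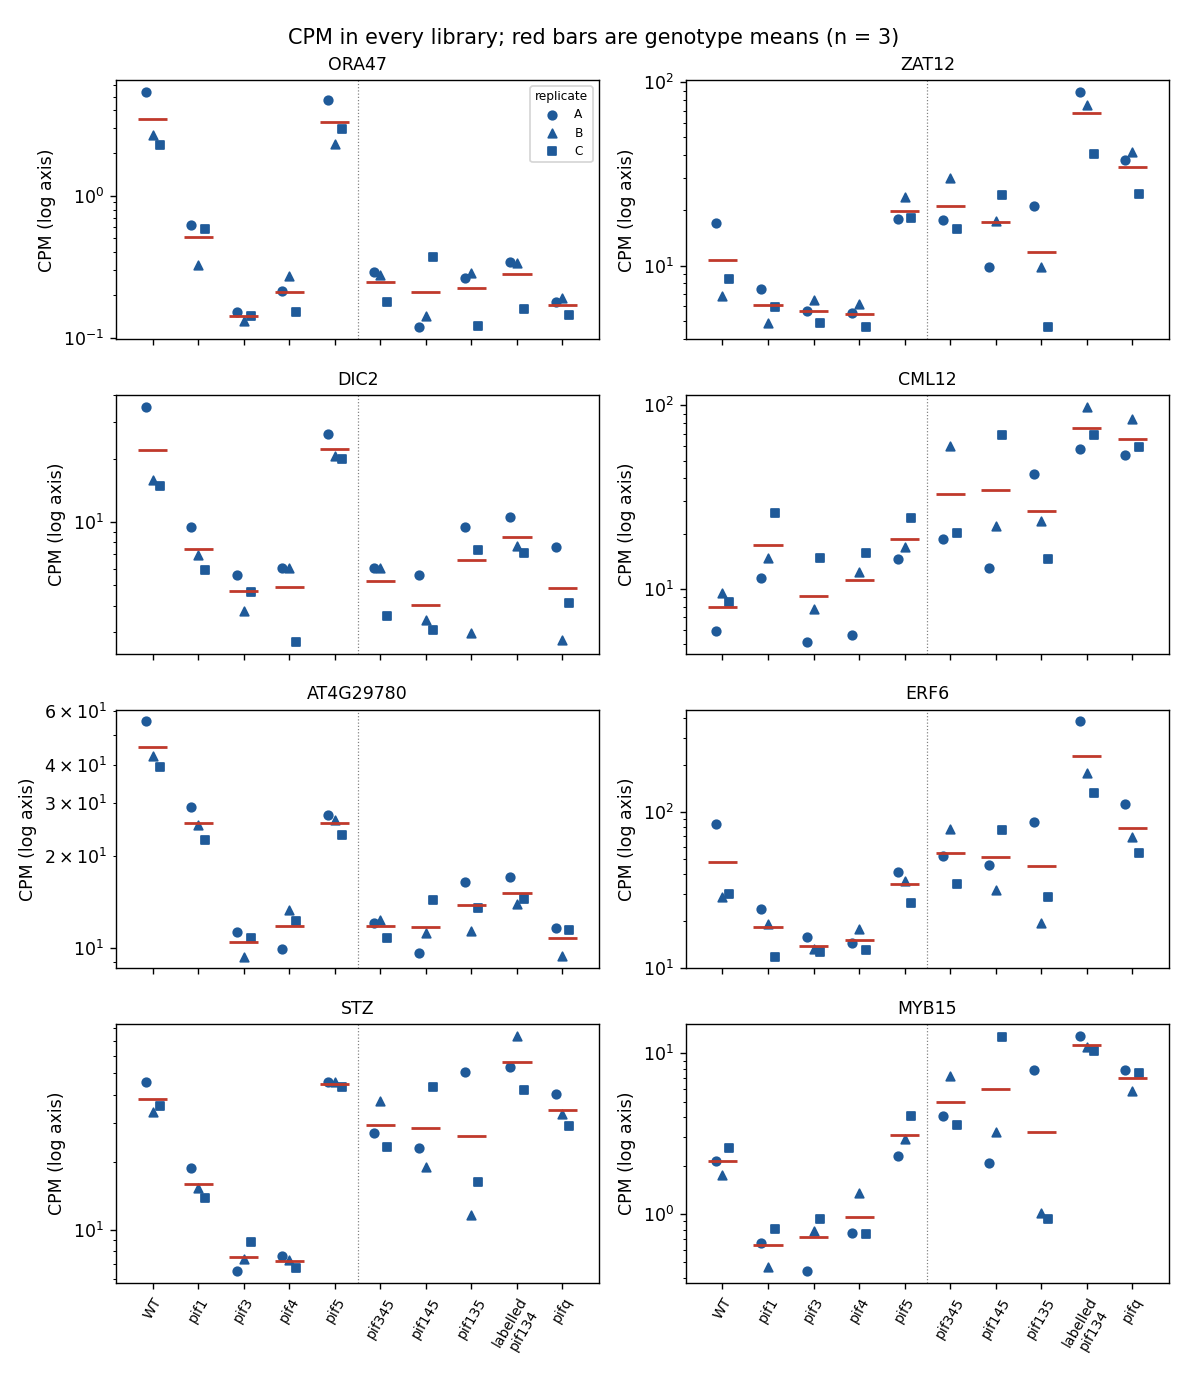
CPM in each of the 30 libraries for 8 genes on a log axis, with symbols for replicate letters, red bars for genotype means (n = 3) and a dotted line between the 2 sets of libraries. ORA47, DIC2 and AT4G29780 stand apart in WT from pif3 and pif4, STZ is lowest in pif3 and pif4, and ZAT12, CML12, ERF6 and MYB15 have their highest means in the libraries labelled pif134.

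CML37 and CML38 are calmodulin-like proteins induced by wounding and, for CML38, by low oxygen. CML38 (AT1G76650) was at 75.6, 36.4 and 28.2 CPM in WT A, B and C, 24.7, 29.6 and 14.6 in pif1, 15.4, 52.6 and 6.47 in pif3, 6.56, 23.1 and 12 in pif4, and 25.7, 47 and 43.2 in pif5. It was at 58.8, 49.6 and 71.7 in pif345, 92.9, 77.4 and 13.3 in pif145, 26.1, 27.9 and 23.5 in pif135, 198, 171 and 39.5 in the libraries labelled pif134, and 198, 55.3 and 35.1 in pifq. Replicates differed widely, from 35.1 to 198 CPM in pifq and from 13.3 to 92.9 in pif145, and edgeR called no comparison with WT. With the replicate block within each set CML38 was called higher in the libraries labelled pif134. A list of 6 low-oxygen genes (ADH1, PDC1, HB1, LBD41, SUS4 and HRA1) varied as well, and none of the 6 was at 0 in any library. Its summed level was 628 to 985 CPM in WT, 261 to 818 in pif4, 99 to 1590 in pif145, 599 to 2050 in the libraries labelled pif134 and 708 to 2250 in pifq, and no member of it was called by edgeR in the 16 comparisons. The low end in pif145 and the high end in pifq were pif145 C and pifq A, which held the lowest and the highest CML38 of their genotype. The part of low oxygen in these levels was not tested. CML37 (AT5G42380) gave 346 reads in all and ranged from 0 to 1.70 CPM.

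WRKY33, a factor needed for defence against necrotrophic fungi, belongs to 6 WRKY genes that are induced within the early wave. WRKY33 (AT2G38470) held 52.7, 25.8 and 28.1 CPM in WT A, B and C, 41.6, 23.1 and 30.8 in pif1, 17.5, 12.4 and 22.4 in pif3, 21, 22.3 and 17.8 in pif4, and 39.5, 50.2 and 42 in pif5. It held 54.2, 76 and 35.8 in pif345, 51, 54.3 and 80.8 in pif145, 109, 38.3 and 28.8 in pif135, 99.2, 110.0 and 62.2 in the libraries labelled pif134, and 65.1, 76.3 and 63.4 in pifq. The 6 libraries labelled pif134 or pifq lay above the highest WT library at 52.7 CPM, as did A and B of pif345, B and C of pif145 and A of pif135. On the log2 scale the difference from WT was 1.35 ± 0.38 in the libraries labelled pif134 and 0.94 ± 0.38 in pifq, and the former was called. That call was lost without WT B, WT C or library B labelled pif134. In pif3 and pif4 the 6 libraries lay between 12.4 and 22.4 CPM, below WT at 25.8 to 52.7.

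WRKY40 and WRKY18 are related regulators of defence. WRKY40 (AT1G80840) held 32.9, 26.2 and 19 CPM in WT, 6.3, 6.99 and 10.9 in pif3, 5.54, 7.96 and 6.0 in pif4 and 26.7, 24.4 and 27.5 in pif5. The pif3 and pif4 libraries lay below those of WT and pif5. WRKY18 (AT4G31800) had genotype means between 11.6 CPM in pif135 and 26.1 in pif5. It was not called by edgeR, while DESeq2 and both replicate blocks called it higher in pif5 than in pif1 and pif4. WRKY46 (AT2G46400) held 11.7, 5.95 and 5.65 CPM in WT and 2.24, 1.37 and 2.15 in pif3, a log2 difference of -2.00 ± 0.34. In pif4 it held 2.24, 2.65 and 2.87 and was not called by edgeR. It was called lower in pif3, pif145 (-1.39), pif135 (-1.01) and pifq (-1.21). Each of these calls was lost without WT A, and that in pif3 also without pif3 B. WRKY53, a senescence factor, had means from 3.37 CPM in pif3 to 10.5 in pif135. It was not called by edgeR, while DESeq2 and both replicate blocks called it higher in pif5 than in pif3. WRKY6 was called higher in the libraries labelled pif134, at 21.5, 12.6 and 13.2 CPM against 9.53, 4.28 and 6.6 in WT, a call that was lost without WT B or without library A of that label.

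ERF5 and ERF6 are closely related factors phosphorylated by stress-activated kinases. ERF6 (AT4G17490) was at 84.3, 28.6 and 29.7 CPM in WT A, B and C, 24, 19.2 and 11.8 in pif1, 15.9, 13.2 and 12.6 in pif3, 14.5, 17.7 and 13.1 in pif4, and 41.5, 35.9 and 26.2 in pif5. It was at 51.9, 77.8 and 34.3 in pif345, 45.8, 31.7 and 77.1 in pif145, 86.9, 19.5 and 28.4 in pif135, 381, 177 and 132 in the libraries labelled pif134, and 113, 68.7 and 54.4 in pifq. The 3 libraries labelled pif134 lay above the other 27, the highest of which was pifq A at 113 CPM. WT A, at 84.3, stood well above WT B and C, and the log2 fold change of the libraries labelled pif134 was 2.28 ± 0.50. ERF5 (AT5G47230) had 5.91, 4.32 and 6.41 CPM in WT A, B and C, 2.37, 3.16 and 3.14 in pif1, 2.54, 2.45 and 3.61 in pif3, 2.2, 3.91 and 2.79 in pif4, and 4.99, 5.37 and 3.59 in pif5. It had 4.46, 9.61 and 4.95 in pif345, 3.47, 6.82 and 10.1 in pif145, 6.16, 4.16 and 3.92 in pif135, 19.6, 37.3 and 11.1 in the libraries labelled pif134, and 11.7, 18.1 and 6.56 in pifq. All 3 pifq libraries and all 3 labelled pif134 lay above WT, at log2 fold changes of 1.13 ± 0.40 and 2.03 ± 0.41, and the latter was called.

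ERF1A and ERF2 activate genes through the GCC-box. ERF1A (AT4G17500) was at 51.5, 21.3 and 27.1 CPM in WT A, B and C, 26.7, 12.4 and 14.1 in pif1, 25.2, 11.3 and 16.4 in pif3, 16.8, 18.8 and 20.6 in pif4, and 30.1, 20.9 and 28.1 in pif5. It was at 37.4, 45.4 and 35.8 in pif345, 27, 22.8 and 76 in pif145, 44.2, 13.3 and 19.1 in pif135, 122, 57.7 and 63.3 in the libraries labelled pif134, and 52.1, 35.8 and 37.9 in pifq. The 3 libraries labelled pif134 and pif145 C were above the highest WT library at 51.5 CPM, and pifq A, at 52.1, barely so. ERF2 (AT5G47220) averaged 1.32 ± 0.572 CPM in WT and 7.28 ± 1.35 in the libraries labelled pif134, a log2 difference of 2.44 ± 0.58. All libraries of pif5, pif345 and pifq also lay above the highest WT library at 1.97 CPM, although edgeR did not call ERF2 there. ERF6 and ERF1A lie 5041 bases apart on chromosome 4, and ERF2 and ERF5 6924 bases apart on chromosome 5, each pair on opposite strands. All 4 had their highest mean in the libraries labelled pif134. How the authors counted reads that fit related copies is not given in the sources used here, so levels of such relatives carry that doubt.

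ERF109, also called RRTF1, links wounding and reactive oxygen to jasmonate and auxin (AT4G34410, chromosome 4, 16451876 to 16453260). It was at 5.71, 4.56 and 4.6 CPM in WT A, B and C, 1.55, 3.37 and 2.04 in pif1, 0.0275, 0.0979 and 0.107 in pif3, 0.0846, 0.18 and 0.0754 in pif4, and 1.5, 1.86 and 1.8 in pif5. It was at 0.324, 0.196 and 0.427 in pif345, 0.553, 0.474 and 0.159 in pif145, 0.306, 0.261 and 0.364 in pif135, 0, 0.048 and 0 in the libraries labelled pif134, and 0, 0.0944 and 0.0482 in pifq. The libraries fell into 3 bands without overlap, WT above 4.5 CPM, pif1 and pif5 between 1.5 and 3.37, and the other 21 at 0.553 or lower. WT gave 492 reads in all, pifq 3 and the libraries labelled pif134 1. These are ratios of 104 (95% exact interval 35.5 to 507) and 277 (49.5 to 11000), with counting error only. In pif3 and pif4 the log2 fold changes were -6.14 ± 0.54 and -5.42 ± 0.53. ERF11, a repressor of ethylene synthesis genes, held 7.43, 5.07 and 5.39 CPM in WT and 0.797, 0.849 and 0.858 in pif3 (-2.83 ± 0.46), and ERF104, a target of the kinase MPK6, was not called by edgeR. ERF11 was also called lower in pif145 (-1.5) and pif135 (-1.66), and both calls were lost without WT A. With DESeq2 or either replicate block ERF104 was called higher in pif5 than in pif1.

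The CBF factors open the cold response. CBF1 was at 0.287, 0.0214 and 0.197 CPM in WT and reached at most 0.0979 in a mutant library, and it was listed at 0 in 17 of the 30 libraries. CBF3 was at 0 in 20 libraries and did not exceed 0.0718 CPM. CBF2 (AT4G25470) was at 1.77, 1.03 and 1.15 CPM in WT A, B and C, 0.893, 1.0 and 1.1 in pif1, 0.454, 0.522 and 0.358 in pif3, 0.339, 0.36 and 0.453 in pif4, and 0.975, 0.93 and 0.555 in pif5. It was at 0.359, 0.589 and 0.142 in pif345, 0.316, 1.28 and 0.847 in pif145, 0.35, 1.81 and 0.971 in pif135, 0.516, 0.72 and 0.37 in the libraries labelled pif134, and 0.531, 1.09 and 0.289 in pifq. The pif3 and pif4 libraries lay below the 3 of WT, at log2 differences of -1.54 ± 0.52 and -1.75 ± 0.54 that were not called. The 3 genes stand in tandem on chromosome 4, 1774 and 2379 bases apart, and are alike in sequence, so reads may have been split or lost among them.

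MYB15, a repressor of CBF genes and an activator of lignin genes in defence (AT3G23250), was high in several triple-mutant libraries and in pifq. Its level was 2.14, 1.76 and 2.56 CPM in WT, 0.66, 0.466 and 0.803 in pif1, 0.44, 0.784 and 0.93 in pif3 and 0.762, 1.35 and 0.754 in pif4. In the other set it was 4.1, 7.22 and 3.59 in pif345, 12.8, 10.9 and 10.3 in the libraries labelled pif134 and 7.83, 5.85 and 7.53 in pifq. The 9 libraries of pif1, pif3 and pif4 lay below WT and the 9 of pif345, pifq and the label pif134 above it. In pif145, C held 12.7 CPM beside 2.09 and 3.22, and in pif135, A held 7.83 beside 1.02 and 0.931. On the log2 scale MYB15 differed from WT by 2.40 ± 0.60 in the libraries labelled pif134 and 1.72 ± 0.59 in pifq. The former call was kept in all 12 settings. The call in pifq was lost without any 1 of the WT or pifq libraries, and without the libraries labelled pif134.

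CAF1A and CAF1B are deadenylase subunits that shorten messenger poly(A) tails and are themselves wound-induced. CAF1B (AT5G22250) held 12.8, 4.8 and 6.47 CPM in WT, 2.67, 0.849 and 1.61 in pif3 and 1.82, 1.75 and 2.38 in pif4, below WT in all 6 mutant libraries. The library WT A was far above B and C, and edgeR called neither gene in the 16 comparisons. DESeq2 and both replicate blocks called CAF1B lower in pif3 than in WT, and both blocks called it higher in pif5 than in pif3. CAF1A (AT3G44260) ranged from 6.87 to 25.6 CPM within WT alone.

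DIC2 is a mitochondrial carrier of dicarboxylates (AT4G24570, chromosome 4, 12686459 to 12687650). It was at 35.3, 15.9 and 14.9 CPM in WT A, B and C, 9.44, 6.93 and 5.91 in pif1, 5.61, 3.75 and 4.65 in pif3, 6.05, 6.03 and 2.68 in pif4, and 26.1, 20.7 and 20.0 in pif5. It was at 6.04, 6.04 and 3.56 in pif345, 5.57, 3.41 and 3.07 in pif145, 9.44, 2.97 and 7.32 in pif135, 10.6, 7.68 and 7.08 in the libraries labelled pif134, and 7.61, 2.74 and 4.1 in pifq. The 6 libraries of WT and pif5 lay between 14.9 and 35.3 CPM and the other 24 at 10.6 or lower. The log2 fold change against WT was -2.23 ± 0.41 in pif3, -2.45 ± 0.42 in pif145 and -1.38 ± 0.40 in the libraries labelled pif134, but 0.02 ± 0.39 in pif5. WT A was higher than WT B and C, and the calls in pif1, pif3, pif4, pif345, pif135 and the libraries labelled pif134 were lost without it. The call in pif1 was also lost without pif1 B or C, and that in pif3 without any 1 of the pif3 libraries. That in pif4 was lost without any 1 of the pif4 libraries or without the libraries labelled pif134. Under the label pif134 the call was lost without library B or C of that label.

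AT4G29780 (chromosome 4, 14579563 to 14582057) is one of the 12 genes with a mean over 5 CPM and the widest range of genotype means. It was at 55.4, 42.6 and 39.4 CPM in WT A, B and C, 29, 25.4 and 22.6 in pif1, 11.3, 9.37 and 10.8 in pif3, 9.9, 13.3 and 12.3 in pif4, and 27.3, 26.3 and 23.5 in pif5. It was at 12.1, 12.4 and 10.8 in pif345, 9.67, 11.2 and 14.4 in pif145, 16.5, 11.4 and 13.5 in pif135, 17.1, 13.9 and 14.5 in the libraries labelled pif134, and 11.6, 9.39 and 11.5 in pifq. Levels fell into 3 bands without overlap, WT at 39.4 to 55.4 CPM, pif1 and pif5 at 22.6 to 29.0, and the other 21 libraries at 9.37 to 17.1. Against WT the difference on the log2 scale was -0.84 ± 0.20 in pif1 and -0.83 ± 0.20 in pif5, and it lay between -2.12 and -1.59 in the other 7 mutants. The difference was called in pif1 but not in pif5, where 703 and 24 of all loci were called. Among the triple mutants and pifq its means ran from 10.8 to 15.2 CPM.

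The comparisons of pifq with each triple mutant hold neither WT nor a single mutant, and all 4 share the pifq libraries. Which comparisons shaped the list is not stated, so these may have been used too. Their counts and p-values are therefore also a description. By their labels the comparisons ask what losing the last PIF adds. For the libraries labelled pif134 that reading is in doubt, since their PIF1 reads were not low. Of the 36 genes, 2 were called lower in pifq than in pif345 (1.69% of all loci were), 2 lower than in pif145 (0.444%) and 1 lower than in pif135 (0.509%). JAZ7 was lower than in pif145, at a log2 fold change of -1.41 ± 0.34 (edgeR adjusted p = 0.0494) and lower than in pif135, at -1.53 ± 0.33 (edgeR adjusted p = 0.0289). The 3 pifq libraries, at 0.566 to 0.753 CPM, lay below 1.34, 2.13 and 2.01 CPM in pif145 and 1.92, 2.09 and 1.9 in pif135.

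ERF109 was lower in pifq, at 0, 0.0944 and 0.0482 CPM, than in pif345, at 0.324, 0.196 and 0.427 (edgeR adjusted p = 0.0373), and than in pif145, at 0.553, 0.474 and 0.159 (edgeR adjusted p = 0.043). The pifq level rests on 3 reads in all, so the size of the difference is uncertain. JAZ10 was lower than in pif345, at a log2 fold change of -1.04 ± 0.28 (edgeR adjusted p = 0.0384), at 2.92, 1.51 and 2.46 CPM against 4.71, 4.9 and 4.63. All 5 of these calls were lost when the fit held only the triple mutants and pifq, and leaving out single libraries lost each of them as well.

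Against the libraries labelled pif134, 0 of the 36 genes were called by edgeR (1.35% of all loci), 10 had an unadjusted p under 0.05 (27.8%, beside 8.26% of all loci), DESeq2 called 1, and the fit with the replicate letter as a block called 2. Of all loci, DESeq2 called 363 and the block 423, beside 252 in the main fit. The median of the 36 genes was -0.58 there (all loci 0.00), with 32 genes lower in pifq, and 0.23, 0.19 and 0.28 against pif345, pif145 and pif135. With the block by letter 4 genes were called lower than in pif345, and with the block within the set 6. These fits called 924 and 1934 of all loci, beside 514 in the main fit. Against pif135 the block by letter called 1 lower and 2 higher, the block within the set 2 lower and 4 higher, and DESeq2 1 lower and 3 higher. In the same order they called 384, 1213 and 368 of all loci, beside 130 in the main fit. Without pif135 A, 1 gene was called lower and 5 higher in pifq than in pif135, and 530 of all loci were called.

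Differences between replicates of 1 genotype were large for these genes. Over the 21 genes that averaged 5 CPM or more, the median standard deviation within a genotype was 0.514 on the log2 scale, beside 0.357 for 12262 loci at that level. In WT, library A was the highest of the 3 for 27 of the 36 genes (75%), where it was the highest for 38.3% of all loci. In pif135, A was the highest for 31 genes (86.1%, beside 32.6% of all loci). In pif345, B was the highest for 27 (75%, beside 27.4%), and in pif145, C for 21 (58.3%, beside 37.2%). Conversely, in the libraries labelled pif134, C was the highest for 3 of the 36 genes (8.33%, beside 30% of all loci).

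**Figure D4:**
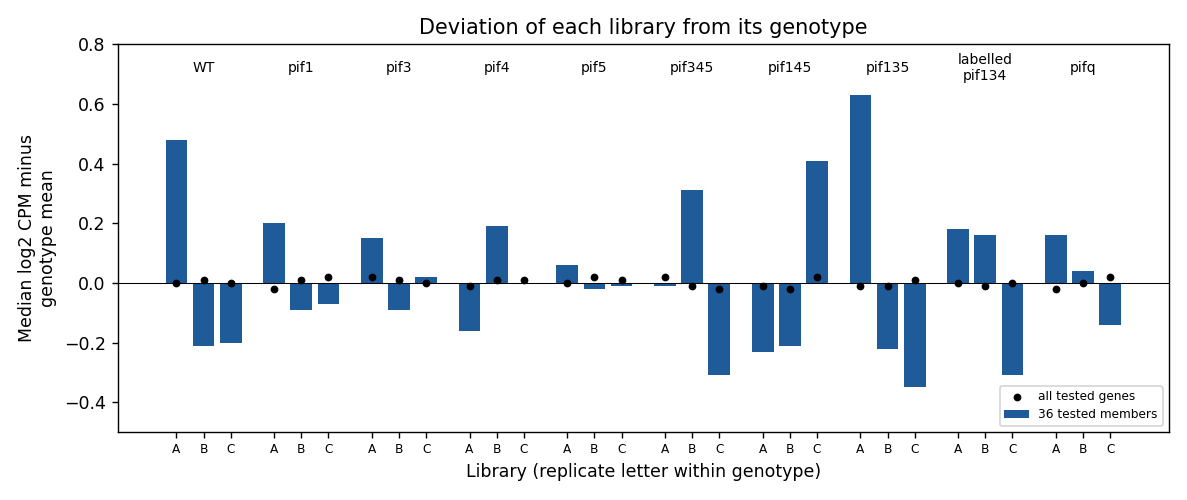
Median deviation of the 36 genes in each library from the mean of its own genotype on the log2 CPM scale (bars), with that of all 18680 tested loci (black dots). The bars reach 0.48 in WT A, 0.63 in pif135 A and 0.41 in pif145 C, and those of the pif5 libraries lie between -0.02 and 0.06.

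The summed level of the 38 genes ran from 263 CPM in pif4 A to 1440 in the library A labelled pif134. The 3 libraries of pif5 lay close together at 564, 570 and 583 CPM, while pif135 A held 724 beside 329 and 341 in B and C. The 6 libraries of pif3 and pif4 held 263 to 335 CPM, below the 3 of WT at 504 to 843. A list of 5 heat-shock genes, none at 0 in any library, summed to 43.9 to 68.7 CPM in WT, 31.3 to 85.7 in pif3, 38.5 to 47.5 in pif4, 76.3 to 198 in pif5 and 144 to 289 in pif345. In the libraries labelled pif134 it summed to 101, 164 and 54.5 CPM, high in A and B, which also held the highest sums of the 38 genes, and in pifq to 117, 39.1 and 45.6. In pif345 A, B and C the order was the other way. The heat-shock genes summed to 190, 144 and 289 CPM there and the 38 genes to 544, 694 and 478. Against WT, 4 of the 5 were called higher in pif345 and 2 in the libraries labelled pif134. Its part in the levels of the 38 genes was not tested.

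The 10 non-member loci whose levels over the 30 libraries were most like the mean standardised profile of the tested genes, by Pearson's r and as a description, included PUB23 (0.916) and CMPG1 (0.874), both plant U-box ubiquitin ligases induced by elicitors, AT3G10930 (0.905), XBAT34 (0.868), AR781 (0.867), AT2G25735 (0.861) and PHI-1 (0.841). The others were AT1G07135, AT4G33920 and AT5G08240, at 0.822 to 0.805. PUB23 averaged 7.57 CPM in WT, 2.1 in pif3, 2.54 in pif4 and 12.6 in the libraries labelled pif134. Of the 36 genes themselves STZ had the highest r, at 0.939, while JAZ7 (-0.015), CML24 (0.068) and LOX4 (0.114) had the lowest. Such values say nothing of shared control.

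Other genes of these pathways, together with markers of tissues and other stresses, were followed in 14 lists of 132 genes. These were also chosen with earlier results known, so their differences are a description too. The shares of all loci called, given above for each comparison with WT, stand beside their counts. Of 11 tested genes for jasmonate synthesis, 2 were called higher and 1 lower in pifq against WT, with a median of -0.19, beside medians of -0.16 in pif3 and -0.18 in pif4. The allene oxide cyclase gene AOC3 was lower, at 8.19 CPM in pifq and 28.4 in WT (log2 fold change -1.79 ± 0.31), while AOC2 and AOC1 were higher. AOC genes are near-identical copies whose reads may have been split. Of 13 other signalling genes, 0 were higher and 2 lower in pifq, with a median of -0.32. MYC2, the master factor of jasmonate responses, averaged 102 CPM in WT, 78.5 in pif345 and 43.8 in pifq, where its log2 fold change from WT was -1.21 ± 0.18.

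Of 7 tested CBF targets, 0 were called higher and 3 lower in pifq against WT, with a median of -0.74. RD29A, a dehydration and cold gene, averaged 40.7 CPM in WT and 7.90 in pifq (log2 fold change -2.36 ± 0.28), beside 28.5 in pif345, 22.5 in pif145, 17.0 in pif135 and 21.8 in the libraries labelled pif134. Of 32 tested further rapid-response genes, 0 were called higher and 2 lower in pif3 (median -0.62), 5 higher and 3 lower in pif145 (0.07), 10 higher and 2 lower in the libraries labelled pif134 (0.85), and 7 higher and 3 lower in pifq (0.42). ERF13 averaged 5.75 CPM in WT, 0.715 in pif3 and 1.01 in pif4. SIB1, a defence regulator that binds WRKY33, averaged 0.698 CPM in WT, 7.77 in pifq and 17.5 in the libraries labelled pif134. Of 4 tested further touch genes, 0 were higher and 2 lower in pifq. The 10 upstream kinases and factors, among them CAMTA3 and MPK3, had medians of -0.13 in pif3, -0.11 in pif4 and -0.20 in pifq. CAMTA3 was called higher in pif145 (log2 0.75) and in the libraries labelled pif134 (0.82).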

How the data were processed

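RNA was measured by 3′-capture, strand-specific sequencing of poly(A) RNA from whole dark-grown seedlings in 30 libraries, 3 for each of 10 genotypes. Reads were aligned with Bowtie 0.12.7 to TAIR10, and edgeR was also named, per the submitters' processing notes. The deposited values are counts of reads per locus, not normalized; the counting tool, the treatment of reads with several hits and the handling of technical runs are not given in the sources used here. In 3 deposited columns (replicate B of WT and of pif3, replicate C of pif5) the values were classed as estimated counts because 1 value without a locus name was not whole; 0 named values were not whole, so nothing was rounded away. That nameless value, at most 0.0015% of a library's total, was left out.

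Counts were fitted with edgeR 4.0.16 in R 4.3.3 (quasi-likelihood test, TMM, filterByExpr with a minimum count of 10, all 30 libraries in 1 fit, Benjamini-Hochberg adjustment, threshold 0.05), after a test on simulated data. The members and lists were chosen with earlier results of these data known. Values in every library are given for the 12 genes averaging at least 5 CPM with the widest range of genotype means, and for CBF2; further members were picked after their values were seen. Other lists name up to 3 called genes with the largest change. P-values rest on the spread between libraries of the same genotype, with 3 libraries a group, estimated over all 30 libraries in the main fit. The letters A, B and C were taken to pair libraries in 12 of 16 comparisons, where the correlation of same-letter deviations exceeded 0.1 for each letter; pif345, pif145, pif135 and pifq against WT did not pass. Alternatives were DESeq2 1.42.0, other scalings, no filter, replicate blocks, the set alone and leaving out libraries. Gene positions and promoters come from RefSeq's TAIR10.1.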

Additional observations from a re-analysis of the deposited data

How the results depend on the processing

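Of 95 calls of single genes over the 16 comparisons, 50 were kept in every setting run and 0 members changed direction. DESeq2 called 7 genes in pif1 and 10 in pif4 against WT, 2 in pif5 against WT, and, for pifq, 1 against pif145, 4 against pif135 (1 lower, 3 higher) and 1 against the libraries labelled pif134. A fit of only the libraries of the set called 9 in pif4 against WT, 12 in pif5 against pif4, and 0 in pifq against pif345, pif145 or pif135; it could not be run for the 5 comparisons of triple mutants or pifq with WT. The replicate block by letter called 2 in pif5 against WT and, in pifq, 4 against pif345, 3 against pif135 and 2 against the libraries labelled pif134. The replicate block within each set called 2 in pif5 and 13 in pif345 against WT, 9, 14 and 14 in pif5 against pif1, pif3 and pif4, and, in pifq, 6 against pif345, 6 against pif135 and 2 against the libraries labelled pif134. Letters did not pair for pif345 against WT. Total counts alone gave 4 in pifq against pif345, no filter gave 1 there and 1 against pif145, and DESeq2's size factors in edgeR gave 1 against pif145. Leaving out the libraries labelled pif134, chosen after seeing the data, gave 2 in pifq against pif135. Counts of all loci moved with these settings too. In pif5 against WT they were 24 in the main fit, 199 with DESeq2 and 1361 with the block within each set. In pif5 against pif4 they were 103, 348 and 970, and 278 in the fit of the set alone. The cause of these shifts was not tested. Total counts alone moved the median of all loci by up to -0.23 (pifq against pif345).

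Leaving out single libraries gave 1 to 4 genes in pif1, 5 to 8 in pif3, 3 to 7 in pif345, 4 to 8 in pif145, 4 to 9 in pif135 and 13 to 17 in the libraries labelled pif134 against WT. Counts of all loci moved too, from 236 to 800 in pif1 and from 8 to 22 in pif3 against WT, beside 703 and 21 in the main fit. For the members, leaving out single libraries also changed the comparisons of pif5 and pifq with other mutants. It gave 1 to 5 in pif5 against pif1, 5 to 7 against pif3 and 4 to 8 against pif4. In pifq it gave 0 to 1 against pif345, 0 to 1 against pif145, 0 to 6 against pif135 and 0 to 1 against the libraries labelled pif134, the last without pifq A.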
